A study of Mus musculus with 6 samples.

Results

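The IL-6 family genes described here are the cytokines Il6, Lif and Il11, the receptor chains Il6ra, Lifr, Osmr and Il6st, and the transcription factor Stat3. They were taken from a list of 9 named genes, as the rows of the deposited array table whose probe annotation names that gene alone. Of the 9 genes, 8 had such a row, 1 row each, out of 19938 genes with a row of their own. Il11ra1 had no row and was not analysed here.

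RNA had been hybridised to 6 single-colour arrays to compare gene expression between stromal cells of the lymph node (LN) and fibroblasts. One array held fibroblasts (MEF) grown out of trypsin-digested E11.5-13.5 embryos of the C57BL/6JJcl strain. Another held LN stroma of adult C57BL/6JJcl mice, obtained by enzymatic digestion and sorted as CD45-CD31-podoplanin+VCAM-1+ cells. The other 4 arrays held the LN stromal cell lines BLS4 and BLS12, both BALB/cA-derived, each left unstimulated or given 1 µg/ml of an agonistic goat polyclonal antibody to the lymphotoxin β receptor (LTβR) for 2 days. The lines and MEF were grown in the same kind of serum-containing medium. No control antibody was among the samples. Age, tissue and culture all separate MEF from LN stroma, and strain, culture and line establishment all separate the lines from LN stroma. The sorting and the enzymatic digestion described for LN stroma are a further difference from the cultures. Strain, tissue and line establishment all separate the lines from MEF. Age may do so too, as the donor age of the lines is not stated here. Within each contrast these factors cannot be told apart. The labels do not say how many mice or embryos gave each sample, or whether a line is a clone.

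IL-6 family cytokines share the signalling chain gp130, encoded by Il6st. IL-6 first binds its own receptor chain, encoded by Il6ra, which exists on the membrane and in soluble form, whereas LIF pairs gp130 with the LIF receptor (Lifr) and mouse oncostatin M pairs it with the oncostatin M receptor (Osmr). The assembled receptors activate JAK kinases, which phosphorylate STAT3, and STAT3 in turn induces Socs3, an inhibitor of the pathway. Stromal cells of lymphoid tissue are a known source of IL-6, which acts on B cells, plasma cells and T follicular helper cells.

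Levels are given as log2 of the deposited intensity, and each is compared with the same gene on other arrays only, since different probe sets do not share a scale. Array medians lay between 5.69 and 5.82 log2. A level below the median may hold mostly background, so differences that start there are approximate. The 9 stromal markers with a row (of 10) lay at or above the median on each array, with summed intensities of 23220 to 43730. The 8 leukocyte markers with a row (of 9) summed to 395 in LN stroma, the lowest of the 6 arrays, to between 426 and 1028 in the lines, and to 1974 in MEF, where Lyz2, a lysozyme of macrophages and neutrophils, stood at 10.36. Much of this order was that of Lyz2, at 5.73 in LN stroma and 7.82 to 9.63 in the lines, whereas Ptprc (5.70), Cd79a (4.78) and Ms4a1 (4.88) were highest in LN stroma, below its median. The macrophage marker Cd68 stood at 6.94 in LN stroma, between the line values of 6.05 and 7.76. Like Lyz2, Cd68 (8.57), Itgam (6.46) and Adgre1 (6.2) were highest in MEF, above its median. Cd3e was highest in unstimulated BLS4, at 6.12. The 6 endothelial markers summed to 584 in LN stroma and to between 208 and 386 elsewhere, with Pecam1 at 6.44 and Cdh5 at 5.97 in LN stroma. Tek stood at 8.18 in LN stroma and between 5.18 and 6.61 elsewhere. Kdr alone of the 6 was higher in MEF, at 7.93, than in LN stroma, at 5.96. The part of leukocytes and endothelial cells in the levels given here was not tested. In bulk RNA, fewer cells of a type and less RNA per cell cannot be told apart. As a check of the antibody, 4 of 8 genes of the LTβR and NF-κB pathway rose in limma, against 0.2% of all genes tested. These were Nfkbie, Tnfaip3, Birc3 and Nfkbia, by 2.00 to 2.93 log2 units. The list was chosen with earlier results of these data known. After quantile normalization 2 of its genes were called, and 0 without cell line as a block.

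Il6 had the widest range of the 8 genes. It stood at 4.14 in MEF, 5.08 in unstimulated BLS12, 6.44 in BLS12 with antibody, 7.41 in unstimulated BLS4, 7.82 in BLS4 with antibody and 11.94 in LN stroma. Each step in this order was larger than the gene's spread in the model of the 4 line arrays (SD 0.242). The corresponding intensities were 17.6 in MEF, 33.9 and 86.8 in BLS12, 170 and 227 in BLS4, and 3930 in LN stroma. LN stroma was therefore 223-fold above MEF, 23.1-fold above unstimulated BLS4 and 116-fold above unstimulated BLS12. Antibody-treated lines remained below LN stroma by 17.3-fold in BLS4 and 45.3-fold in BLS12. Il6 lay under the array median in MEF and in unstimulated BLS12. With 50 added to each intensity before the logarithm, the difference between LN stroma and MEF was 5.88 log2 units in place of 7.80, and that between LN stroma and the mean of the unstimulated lines 4.87 in place of 5.69.

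The stretch of 250 bases before the annotated start of Il6 is shown because this gene differed most between the arrays. It lies at chr5:30012864-30013113 on the plus strand of GRCm38.p6 (RefSeq), and capitals mark matches to any of 6 searched motifs.
Il6: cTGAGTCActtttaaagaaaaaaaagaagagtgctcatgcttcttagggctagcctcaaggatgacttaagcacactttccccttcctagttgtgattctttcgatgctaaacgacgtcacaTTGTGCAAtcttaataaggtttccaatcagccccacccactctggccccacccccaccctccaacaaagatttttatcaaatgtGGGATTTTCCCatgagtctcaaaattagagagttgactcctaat
The capitals at positions -44 to -34 before the start are NF-κB matches (GGGA, then 4 bases of any kind, then CC) on the plus strand at -44 to -35 and on the minus strand at -43 to -34, which overlap. The other capitals are an AP-1 match (TGANTCA) at -249 to -243 and a C/EBP match (TTGCNNAA) at -128 to -121, which is on the minus strand and is printed here as its reverse complement. Over all 32851 promoter windows of this length, both strands searched, 17.6% held the NF-κB letters, 6.75% the AP-1 letters and 9.56% the C/EBP letters.

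Lif, a cytokine that maintains embryonic stem cells and acts through Lifr and gp130, followed another order. It stood at 5.46 in unstimulated BLS4, 6.43 in BLS4 with antibody, 7.0 in BLS12 with antibody, 7.18 in MEF, 7.44 in unstimulated BLS12 and 9.87 in LN stroma. MEF did not differ from its neighbours in BLS12 beyond the gene's spread (SD 0.326). Unstimulated BLS4 lay below its array median, so differences from it are approximate. LN stroma was again the highest array, 6.48-fold above MEF, 21.3-fold above unstimulated BLS4 and 5.40-fold above unstimulated BLS12. With the offset of 50, the difference between LN stroma and the mean of the unstimulated lines was 2.77 log2 units in place of 3.42. Unlike Il6, which was higher in BLS4, Lif was higher in BLS12.
The 250 bases before the start of Lif, at chr11:4257318-4257567 on the plus strand, are shown for comparison with Il6.
Lif: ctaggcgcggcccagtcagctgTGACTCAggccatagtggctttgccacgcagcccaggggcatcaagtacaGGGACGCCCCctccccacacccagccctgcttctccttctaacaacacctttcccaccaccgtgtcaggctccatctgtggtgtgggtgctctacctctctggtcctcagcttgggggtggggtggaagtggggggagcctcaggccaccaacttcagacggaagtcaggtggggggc
They held an AP-1 match at -228 to -222 and an NF-κB match at -178 to -169. Among the 10 windows of the 8 genes, since Il11 and Lifr have 2 starts each, the NF-κB letters were found in 6, namely those of Il6, Lif, Il6ra and Osmr and both of Lifr. AP-1 letters were also found in 1 window of Il11. The letters of the cyclic AMP response element (TGACGTCA, in 1.55% of all windows), the STAT motif (TTCNNNGAA, 7.02%) and the TATA box (TATAAA, 12.4%) were in no window of the 8 genes.

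Il11, the third cytokine, lay below the median on each of the 6 arrays, between 5.15 in LN stroma and 5.52 in MEF. Its 5 lowest arrays followed each other in steps smaller than the spread (SD 0.132). It did not pass the intensity filter of any comparison, and no difference in Il11 was detectable with these arrays.

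**Figure D1:**
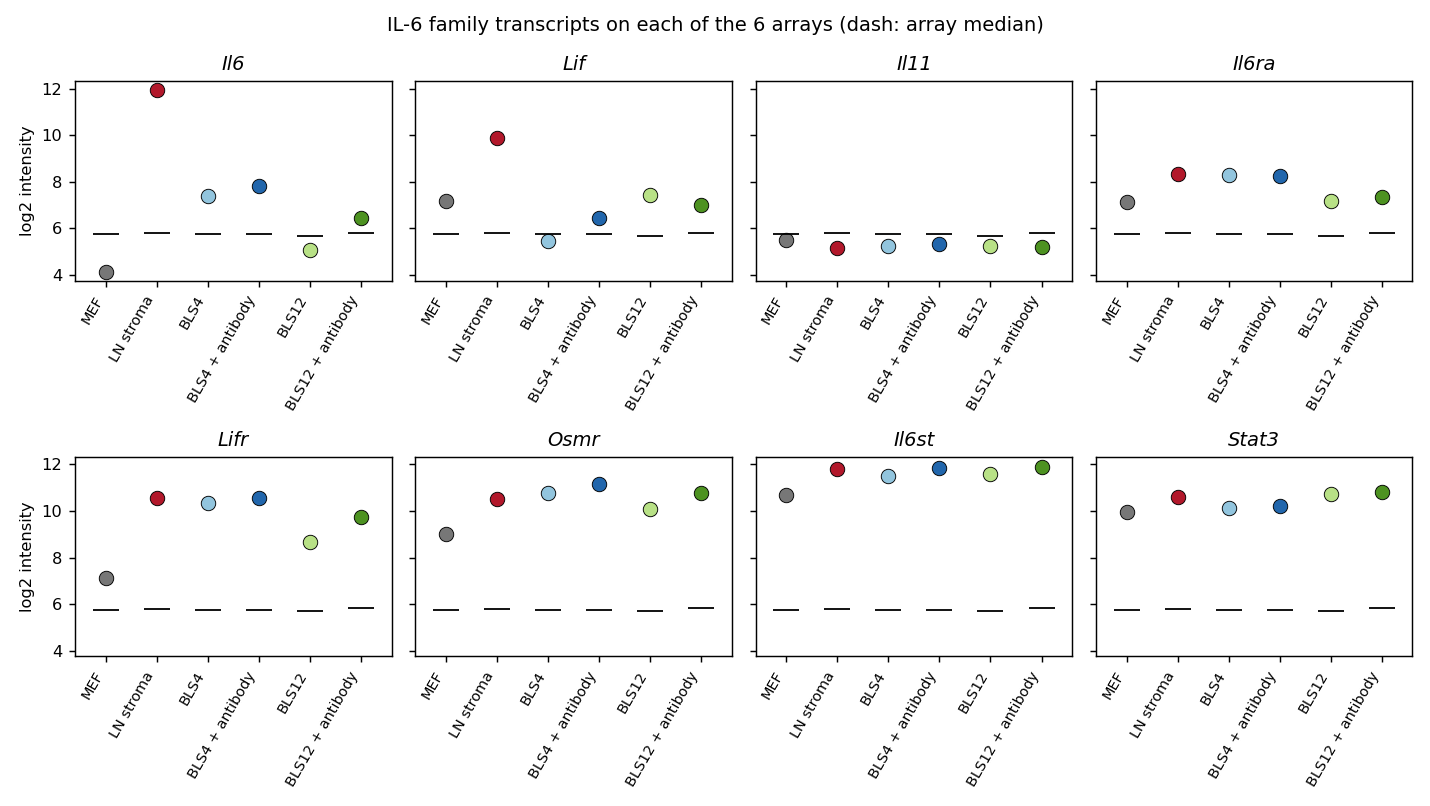
Log2 intensity (y axis, shared) of the 8 genes on each of the 6 arrays (x axis), 1 point per array, with the median of each array as a dash. Il6 and Lif stand highest in LN stroma at 11.94 and 9.87, MEF is the lowest array for 6 of the 8 genes, and Il11 lies below the median throughout.

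Il6, Lifr, Osmr, Il6st and Stat3 were lower in MEF than on the other arrays by more than their spread. For Stat3 the step was 0.16 against an SD of 0.137. This spread comes from the 4 line arrays alone and does not measure variation of MEF or LN stroma. A gap between arrays also varies more than a single value does. MEF was the lowest of the 6 arrays for 6 of 8 genes (Il6, Il6ra, Lifr, Osmr, Il6st and Stat3), where it was the lowest for 18.8% of the 13166 genes that reached the median on any array. All 4 line arrays lay above MEF for the same 6 genes, against 26.3% of these genes. LN stroma was the highest array for 3 of the 8 (Il6, Lif and Il6ra), against 20.7%. Il6ra enters both counts by steps of 0.02, under its spread, so that beyond the spread MEF was lowest for 5 genes and LN stroma highest for 2. One MEF array and one LN array stand behind these counts, which had no test.

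Lifr had the widest range among the receptors. It stood at 7.14 in MEF, 8.67 in unstimulated BLS12, 9.76 in BLS12 with antibody, 10.35 in unstimulated BLS4, 10.54 in LN stroma and 10.57 in BLS4 with antibody. The last 3 followed each other in steps of 0.19 and 0.03, under the spread (SD 0.228), so LN stroma and BLS4 could not be ranked. LN stroma was 10.5-fold above MEF, unstimulated BLS4 9.24-fold and unstimulated BLS12 2.88-fold.

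Osmr stood at 9.01 in MEF, 10.10 in unstimulated BLS12, 10.53 in LN stroma, 10.77 in both BLS12 with antibody and unstimulated BLS4, and 11.16 in BLS4 with antibody. It was 2.88-fold higher in LN stroma than in MEF, and 3.41-fold and 2.14-fold higher in unstimulated BLS4 and BLS12. Apart from the tie at 10.77, its steps exceeded the spread (SD 0.150). Antibody-treated BLS4 and BLS12 lay above LN stroma by 1.54-fold and 1.18-fold.

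Il6ra separated the arrays into a lower and a higher set. MEF at 7.15, unstimulated BLS12 at 7.17 and BLS12 with antibody at 7.34 formed the lower one. BLS4 with antibody at 8.26, unstimulated BLS4 at 8.30 and LN stroma at 8.32 formed the higher one, with steps of 0.04 and 0.02 inside the spread (SD 0.144). The step between the sets was 0.92. LN stroma was 2.26-fold above MEF and 2.23-fold above unstimulated BLS12, and 1.02-fold above unstimulated BLS4.

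Il6st, the shared chain gp130, varied over 2.34-fold. It was at 10.69 in MEF, 11.49 in unstimulated BLS4, 11.60 in unstimulated BLS12, 11.79 in LN stroma, 11.83 in BLS4 with antibody and 11.91 in BLS12 with antibody. MEF stood apart by a step of 0.81, while LN stroma and both antibody arrays followed each other in steps under the spread (SD 0.137). Stat3 varied least among the genes above the median, over 1.80-fold, from 9.95 in MEF through 10.11 and 10.23 in BLS4 and 10.61 in LN stroma to 10.73 and 10.80 in BLS12. Both BLS12 arrays lay above both BLS4 arrays.

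By size alone, LN stroma was at least 4-fold above MEF in 3 of the 8 genes (Il6, Lif and Lifr) and in none at least 4-fold below, where 7.57% of 12613 genes were that far apart, 4.64% above and 2.93% below. Il6ra, Osmr and Il6st were at least 2-fold above, and Stat3 was 1.58-fold above. LN stroma was at least 4-fold above both unstimulated lines in 2 genes (Il6 and Lif), where 4.09% of 12827 genes were that far from both, 3.52% above and 0.569% below. None of the 8 was at least 4-fold from MEF in both unstimulated lines, against 1.44% of 12676 genes (0.308% above and 1.14% below), although Il6 (9.66-fold) and Lifr were in BLS4 taken alone. These 3 comparisons share arrays, and none has a replicate of MEF or LN stroma.

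Whether the antibody changed these genes was asked in a limma model with each line as its own control. The differences were positive for the 7 genes that passed the intensity filter when averaged over the lines, from 0.06 for Il6ra to 0.89 for Il6, with a median of 0.32 against -0.017 over all 11988 genes tested. None of the 7 passed Benjamini-Hochberg adjustment at 0.05 in limma, where 0.275% of all genes passed, 0.2% higher and 0.0751% lower with the antibody (24 and 9 genes). With arrays centred the split was 54 and 44 genes, and after quantile normalization 5 and 1. At an unadjusted limma p under 0.05 there were 3 (Il6, Osmr and Lifr), all positive, against 11.6% of all genes at that level and 5.73% with a positive difference. Of the 7, 5 were positive in both lines, against 28.4% of all genes. With each array centred on its median, which moved the median of all genes to -0.093, the Il6ra difference was -0.013 and the other 6 stayed positive.

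Il6 differed by 1.33-fold in BLS4 and 2.56-fold in BLS12. The mean was 0.89 log2 units (SE 0.242, 95% interval 0.28 to 1.49, limma adjusted p = 0.259, higher in 2 of 2 lines). Unstimulated BLS12 began below its array median, so its larger ratio is approximate, and with the offset of 50 the mean was 0.52 (limma adjusted p = 0.241). Osmr differed by 0.38 in BLS4 and 0.67 in BLS12, with a mean of 0.53 (SE 0.150, interval 0.15 to 0.90, limma adjusted p = 0.277). Lifr differed by 0.22 in BLS4 and 1.09 in BLS12, where the intensity went from 407 to 865, with a mean of 0.66 (SE 0.228, interval 0.088 to 1.22, limma adjusted p = 0.375). Il6 and Lifr were thus at least 2-fold higher in BLS12, as were 1.6% of all genes, and none of the 7 was in BLS4, against 0.968%. On the same BLS12 arrays the summed leukocyte markers went from 426 to 1028, with Lyz2 at 7.82 and 9.63 and the pan-leukocyte gene Ptprc below the median at 4.06 and 4.32. The other markers moved less than Lyz2: Cd68 from 6.05 to 6.26 and Cd3e from 5.55 to 6.07. Itgam (4.91 and 4.99) and Adgre1 (3.92 and 3.94) stayed below the median. In BLS4 the sum went from 642 to 615, with Lyz2 at 8.54 and 7.84 and Cd68 at 6.75 and 7.76. The part of leukocytes in the antibody differences was not tested.

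Il6st had nearly the same difference in both lines, 0.33 in BLS4 and 0.31 in BLS12 (mean 0.32, interval -0.021 to 0.66, limma adjusted p = 0.456). Lif went in opposite directions, by 0.97 in BLS4, from a level below the median, and -0.43 in BLS12. Its mean of 0.27 (0.1 with the offset) had an interval from -0.55 to 1.08 (limma adjusted p = 0.804). Il6ra and Stat3 had mean differences of 0.06 and 0.09, with intervals of -0.30 to 0.42 and -0.25 to 0.43. With 1 array per line and condition, whether the lines responded differently could not be tested.

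**Figure D2:**
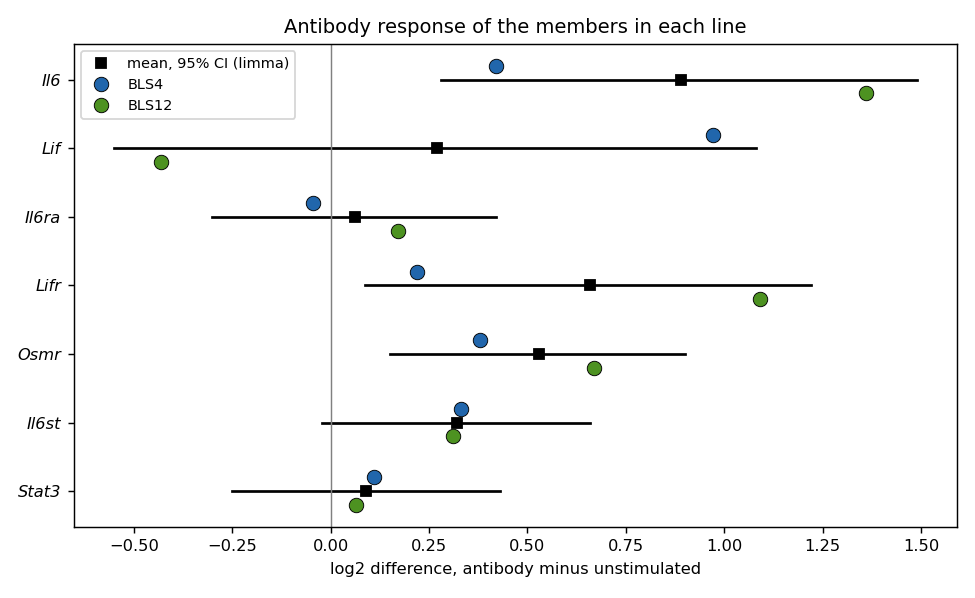
Log2 difference between antibody-treated and unstimulated cells (x axis) for the 7 genes tested, with circles for BLS4 and BLS12 and squares with bars for the limma mean and its 95% interval. The intervals of Il6, Lifr and Osmr lie above 0 before adjustment, none passes after it, and Lif has 0.97 in BLS4 and -0.43 in BLS12.

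The lines themselves differed in 5 of the 7 genes in the same model: Il6, Il6ra and Lifr were higher in BLS4, and Lif and Stat3 were higher in BLS12. Over all genes 23.6% differed, 11.4% in favour of BLS4 and 12.2% in favour of BLS12. Il6 was lower in BLS12, by a log2 difference of -1.86 from BLS4 (SE 0.242, limma adjusted p = 0.00687), made up of -2.33 without and -1.38 with antibody. Il6ra differed by -1.03 (SE 0.144, limma adjusted p = 0.00817) and Lifr by -1.25 (SE 0.228, limma adjusted p = 0.0166). Lif differed by 1.28 (SE 0.326, limma adjusted p = 0.0421), from 1.98 in unstimulated cells to 0.58 with antibody. Stat3 differed by 0.59 (SE 0.137, limma adjusted p = 0.0320).

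Osmr had a difference of -0.53 (limma adjusted p = 0.0554), which passed in 3 of the alternative settings, and Il6st one of 0.10 (interval -0.24 to 0.44, limma adjusted p = 0.652). The call on Lif was lost after quantile normalization (limma adjusted p = 0.0655). With the offset of 50 the Il6 and Lif differences were -1.20 and 0.82. In each of the 5 genes called, the unstimulated and the antibody-treated pair differed in the same direction. Without the antibody as a block, Il6ra alone of the 5 passed (limma adjusted p = 0.0214), and the others had adjusted p-values from 0.0507 for Stat3 to 0.0973 for Lifr.

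**Figure D3:**
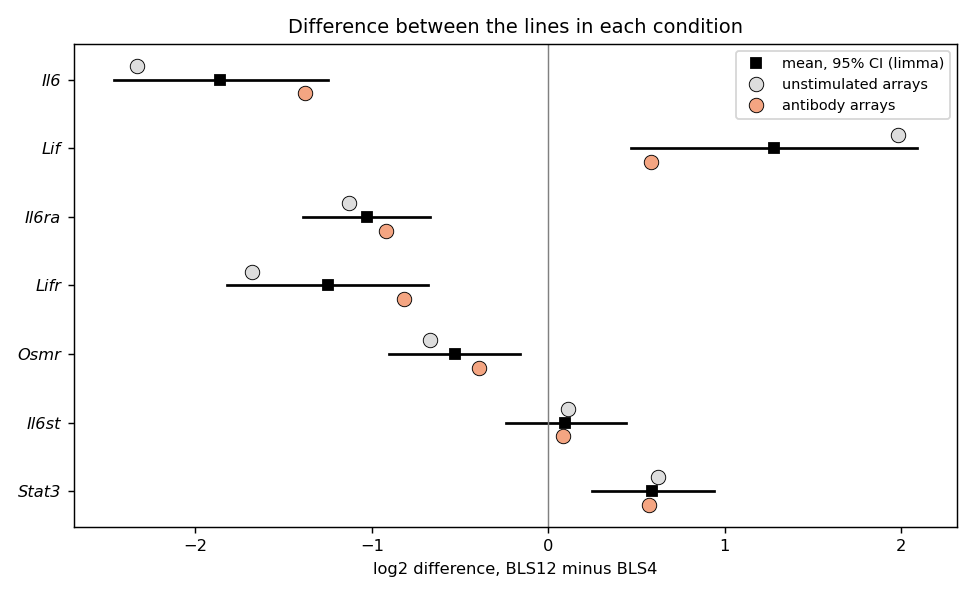
Log2 difference between BLS12 and BLS4 (x axis) for the 7 genes tested, with circles for the unstimulated and the antibody-treated arrays and squares with bars for the limma mean and its 95% interval. Il6, Il6ra and Lifr lie to the left at -1.86, -1.03 and -1.25, and Lif and Stat3 to the right at 1.28 and 0.59.

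The other genes of the family and pathway came from fixed lists. Of 9 further ligands and soluble subunits, 7 had a row and 3 passed the filter for the lines (Clcf1, Il27 and Il31), with 0 called in limma in either comparison and none 4-fold apart elsewhere. Oncostatin M, the ligand of Osmr, lay between 4.32 and 4.6 on the 6 arrays, below the medians. Of 4 further receptor chains 3 had a row. Cntfr, which binds ciliary neurotrophic factor, was at 9.06 in LN stroma and between 5.6 and 6.45 on the other arrays, at least 4-fold above both MEF and the unstimulated lines.

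Among 7 kinases and adaptors with a row (of 8), 0 rose or fell with the antibody in limma, and their median difference was 0.08. Jak2, one of the kinases bound to gp130, went from 9.45 to 10.61 in BLS4 and from 10.05 to 11.47 in BLS12, a mean of 1.29 (SE 0.147, limma adjusted p = 0.0521). This missed the threshold, but passed under 4 of the alternative settings: arrays centred, no filter, the stricter filter and the prior with a trend. Between the lines 2 of the 7 were higher in BLS12 (Gab1 by 0.76 and Jak2 by 0.73) and 2 higher in BLS4 (Jak1, -0.91, and Ptpn11, -0.63). Over all genes these shares were 12.2% and 11.4%. Without the antibody as a block the call on Jak2 was lost (limma adjusted p = 0.461) and the other 3 passed. Jak1 was highest in LN stroma at 11.35 and lowest in antibody-treated BLS12 at 10.05.

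Of 7 inhibitors of JAK-STAT signalling, 0 changed with the antibody in limma. Socs3 (0.85), Socs2 (0.62) and Ptpn2 (0.61) were higher in BLS12, as were 12.2% of all genes. Without the antibody as a block, none of these 3 calls remained. With the mean of rows Socs2 and Ptpn2 did not pass (limma adjusted p = 0.0695 and 0.0898). With arrays centred Ptpn2 did not pass either (limma adjusted p = 0.0544). Socs3, the feedback inhibitor induced by STAT3, stood at 6.71 in MEF, 7.87 and 8.27 in BLS4, 8.60 and 9.24 in BLS12, and 11.68 in LN stroma. LN stroma thus had the highest Socs3 as well as the highest Il6 and Lif. Socs2 was 2.53 log2 units above MEF in LN stroma but within 0.69 of both unstimulated lines. Of the 7 inhibitors, 2 were thus at least 4-fold apart between LN stroma and MEF, against 7.57% of all genes. With the mean of rows 1 was (7.55% of all genes), and with the offset of 50 also 1 (4.31%). The 4 genes of receptor shedding (Adam10, Adam17, Rhbdf1 and Rhbdf2) had no call and no 4-fold difference.

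The 20 STAT3 and IL-6 target genes had 10 members at least 4-fold higher in LN stroma than in MEF and 0 lower, against 4.64% and 2.93% of all genes. In LN stroma 6 were at least 4-fold higher than in both unstimulated lines, against 3.52% of all genes. Steap4, a metalloreductase, was at 12.67 in LN stroma and 4.54 in MEF, and between 5.02 and 7.98 in the lines. Fos, an immediate early transcription factor, was at 12.48 in LN stroma and between 6.46 and 7.27 elsewhere, and Junb at 11.23 against 7.41 to 8.39. Serpina3n, Lbp and Pim1 exceeded MEF by 5.04, 4.05 and 2.95 log2 units in LN stroma. Serpina3n and Lbp stood at 11.75 and 9.85 in LN stroma and at 11.81 and 10.14 in antibody-treated BLS12. Less than 4-fold lower in LN stroma than in MEF were 3 of the 20, Bcl2l1 (-1.81), Timp1 (-1.39) and Hif1a (-0.68). Fos and Junb are also known to be induced by tissue digestion, which the LN stroma underwent and the cultures did not in the same way. The part of digestion in the LN levels of Il6, Lif and Socs3 was not tested.

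With the antibody, 0 of the 19 targets that passed the filter were called in limma, while 17 had positive differences and the median was 0.49 against -0.017 over all genes tested. With all 4 line arrays required at or above the median 4 targets were called, and with arrays centred 1. By comparison 46.6% of all genes had a positive difference. Between the lines 7 of the 19 were higher in BLS12, led by Icam1 (2.46), Lbp (2.09), Steap4 (1.91) and Myc (1.28), and 3 were higher in BLS4, against 12.2% and 11.4% of all genes. Without the antibody as a block the list had 2 calls in place of 10, and Icam1, Lbp, Steap4 and Myc did not pass (limma adjusted p = 0.0545, 0.062, 0.13 and 0.226). Steap4 lay below the median on both BLS4 arrays, at 5.02 and 5.06, so its difference is approximate. With the offset of 50 it was 1.14 (limma adjusted p = 0.0636). Many of these targets are also targets of NF-κB, so the list is not specific to STAT3.

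The list of 10 regulators of Il6 transcription and mRNA stability had 4 members at least 4-fold above MEF in LN stroma, and the same 4 were that far above both unstimulated lines, against 4.64% and 3.52% of all genes. Zfp36, which destabilises cytokine mRNA, stood at 12.47 in LN stroma and between 7.5 and 8.6 elsewhere. Nfkbiz, a nuclear cofactor of Il6 transcription, stood at 11.65 in LN stroma and between 6.90 and 7.98 elsewhere, and Arid5a, which stabilises Il6 mRNA, at 9.07 against 6.64 to 7.46. The part of tissue digestion in the LN levels of these 4 genes was not tested. None of the 10 was called with the antibody or between the lines in limma under the main setting. With all 4 line arrays required at or above the median, 1 was called with the antibody and 1 between the lines. The offset of 50 gave 1 call between the lines.

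**Figure D4:**
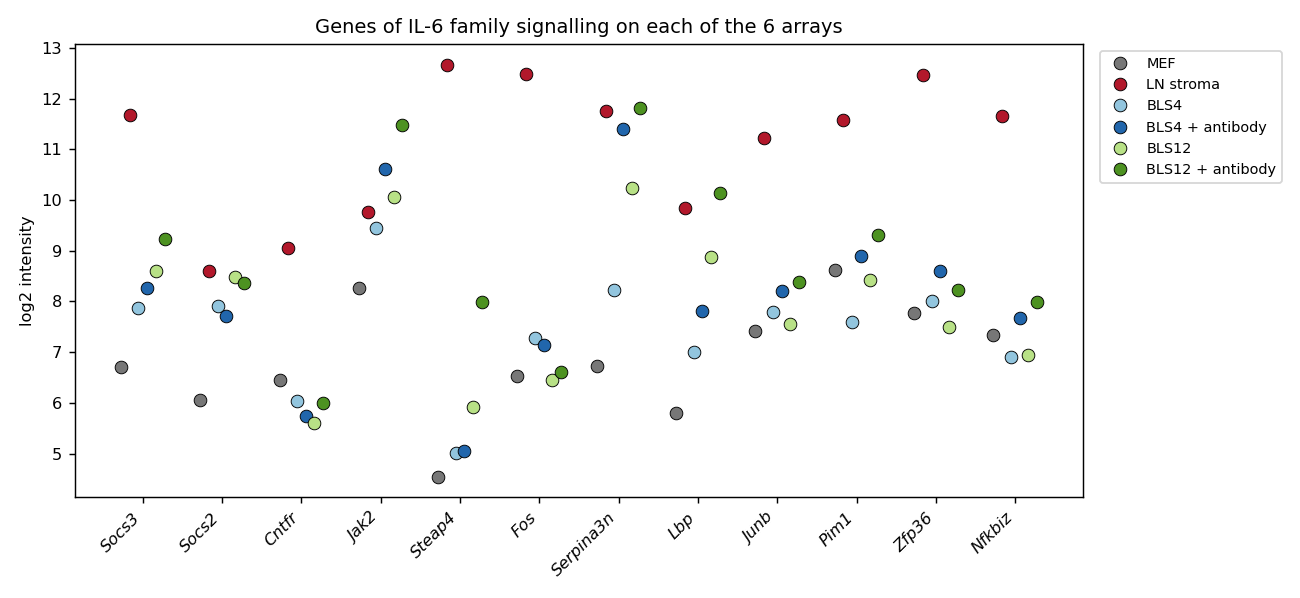
Log2 intensity (y axis) of 12 genes of IL-6 family signalling on each of the 6 arrays, 1 point per array, coloured by sample. LN stroma stands apart at the top for Socs3 (11.68), Cntfr (9.06), Steap4 (12.67), Fos (12.48), Junb (11.23), Pim1 (11.58), Zfp36 (12.47) and Nfkbiz (11.65), while Jak2 is highest in antibody-treated BLS12 (11.47).

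Genes whose pattern over the 6 arrays was most like that of a member were sought for the 4 members spanning at least 2 log2 units, among 5644 genes spanning at least 1. For Il6 these were C4b (Pearson's r 0.9947), Bbs2 (0.9946) and Ezh1 (0.9917), and 72 genes exceeded 0.95. C4b, a complement component, ran from 5.16 in MEF to 12.37 in LN stroma. For Lif they were Col18a1 (0.9759), Negr1 (0.9747) and Abca8b (0.9743), for Lifr Rin2 (0.9941), Lgals3bp (0.9767) and Ndrg1 (0.9743), and for Osmr Gemin8 (0.9958), Tbx18 (0.9911) and Npdc1 (0.9844). Within the family, Lifr and Osmr had r of 0.94, and Il6 and Lif 0.57. These values describe 6 arrays, of which 4 come from 2 lines, and carry no test.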

How the data were processed

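The deposited table gives a linear intensity per probe set, which the authors obtained in Affymetrix Expression Console 1.1, per the submitters' processing notes. How probe sets were summarised and normalized, and the genome build, are not given in the sources used here. Log2 was taken without an offset. Of 35557 rows, 21789 (61.3%) named 1 gene in the platform annotation, 1621 several and 12147 none. The brightest row with a single gene was used.

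Antibody and line differences came from an additive limma 3.58.1 model in R 4.3.3 (two-sided, eBayes) of cell line and antibody over the 4 line arrays. It covered 11988 genes at or above the array median on at least 2 of the 4, with Benjamini-Hochberg adjustment over all of them and a threshold of 0.05. The cell line pairs the arrays, as each line gave both conditions. With 1 residual degree of freedom and no stated repeat cultures, p-values reflect how far these arrays disagree, which may be technical noise. The fit was tested on simulated data with known antibody differences, set equal in both lines. It called 0.8% of those of 0.5 log2 units, 53.2% of those of 1 and 99.2% of those of 2. Of its calls 8.2% were false, at the threshold of 0.05. These shares may be too high for the data, where the lines could differ in their response. Among the targets, Saa3 (mean 2.44, limma adjusted p = 0.227) and Serpina3n (2.37, limma adjusted p = 0.0919) were not called. Saa3 differed by 3.87 in BLS4 and 1.01 in BLS12. The number of arrays limits the precision. The lack of antibody calls among the members therefore does not show that they were unchanged.

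Differences that involve the single MEF or LN array had no test and were counted from 4-fold, where at least 1 array reached its median. Named were the members and, per list and comparison, at most 4 genes past 0.05 or 4-fold. Oncostatin M, Clcf1, Il27, Il31, the shedding genes, Jak2, Saa3 and Serpina3n under the antibody and single markers were picked after their values were seen. The members and lists were chosen with earlier results of these data known. Promoter windows came from RefSeq (GRCm38.p6), matched by symbol for 8 of 8 genes. Alternatives were median centring, quantile normalization, no or a stricter filter, the mean of rows, an offset of 50, a trended prior, no block, a 2-fold limit, and leaving out a line.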

Additional observations from a re-analysis of the deposited data

Results flagged for a closer look

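The antibody difference had opposite signs in BLS4 and BLS12 in 2 of the 7 genes tested, Lif and Il6ra, against 40.1% of the 11988 genes tested, and also in Il11. This contrast between the lines was not tested, since each line had 1 array per condition. Lif had a log2 difference of -0.43 in BLS12 and 0.97 in BLS4. The BLS4 value starts from a level below the array median and is approximate, and a wider gap between the lines occurred in 1.29% of the genes tested. Il6ra had 0.17 in BLS12 and -0.044 in BLS4, both near 0, and a wider gap occurred in 51.2% of genes. Il11, below the array medians, had -0.056 in BLS12 and 0.066 in BLS4.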

How the results depend on the processing

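In limma 0 of the members were called with the antibody under the main setting and under each of the 8 alternatives to it. Over all genes the antibody calls numbered 33, and 98 with arrays centred on their medians, 6 after quantile normalization, 54 without a filter, 115 with all 4 line arrays required at or above the median, 15 with an offset of 50, and 0 when cell line was dropped as the block, where 241 genes and 0 members had an unadjusted p under 0.05. Between the lines 5 members were called, and 1 (Il6ra) without the antibody as a block, where calls over all genes went from 2835 to 1428. The centred Il6ra antibody difference was -0.013, and the Il6st line difference after quantile normalization was -0.088. Leaving out BLS4 or BLS12 in turn gave antibody differences from -0.43 to 0.97 for Lif and from -0.044 to 0.17 for Il6ra. At 2-fold in place of 4-fold, 6 members differed between LN stroma and MEF, against 22.3% of all genes, and 2 (Lifr and Osmr) between MEF and both lines, against 5.82%. Leaving out BLS4 gave 0 members at 4-fold from MEF (3.73% of all genes), and leaving out BLS12 gave 2 (Il6 and Lifr, 3.11%). The cause of these changes was not tested. The list of LTβR and NF-κB genes had 4 antibody calls, 2 after quantile normalization and 0 without the block. Signal over background limits Il11, Il6 in MEF and unstimulated BLS12, and Lif in unstimulated BLS4.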
